A study of Cavia porcellus with 9 samples.

Results

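Retinas of guinea pigs reared under blue light were compared with retinas of guinea pigs reared under white light across the whole transcriptome. The comparison used 6 of the 9 libraries of the study, 3 for blue and 3 for white light, chosen by the lighting condition in their labels. Of the 19962 genes in the count table, 15469 passed the filter on low counts and were tested, and 2697 had no count in any library. All animals were labelled male tri-color guinea pigs of the Dunkin-Hartley strain, obtained at 2 weeks of age, kept for 8 weeks on a cycle of equal light and dark periods, and 12 weeks old at sampling. The groups differed by label in the colour of the light alone, and no wavelength or intensity is stated in the sources used here. RNA was taken from whole retina frozen on dry ice and sequenced as paired ends. In such bulk tissue, fewer cells of a type and less RNA per cell cannot be told apart.

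Rods and cones turn light into an electrical signal through opsins and a phosphodiesterase cascade, and pass it at ribbon synapses to bipolar cells. Guinea pigs have rods together with cones tuned to short and to middle wavelengths, so that blue light reaches their photoreceptor classes in another balance than white light. The eye focuses short wavelengths nearer to the lens than long ones, and rearing under coloured light has therefore been used to study how the retina steers the growth of the eye, a process in which dopamine, retinoic acid, bone morphogenetic proteins and immediate early genes of amacrine cells have been studied.

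The blue libraries are named here blue 1 (animal label 2R-23, right eye) and blue 2 and 3 (animal label 32, right and left eye). The white libraries are white 1 and 2 (animal label 6, right and left eye) and white 3 (animal label R-23, right eye, with an unexplained ending -B). The 3 libraries of a group thus came from 2 animal labels, and whether 2R-23 and R-23 are the same animal is not stated. They were treated as different. The p-values count the 3 libraries of a group as independent, so they measure in part the spread between the eyes of 1 animal. Levels are given as counts per 1000000 counts of the library (CPM), which are not scaled by gene length. Total counts were between 62155041 and 74979806 in these 6 libraries, where 3 counts corresponded to 0.0407 to 0.0483 CPM. Across genes, the log2 levels of blue 2 and 3 correlated at 0.9864 and those of white 1 and 2 at 0.9803, while pairs of a blue and a white library correlated at 0.9767 to 0.9815. These correlations describe genes within libraries, which are not independent replicates.

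Genes on the X chromosome in other mammals separated the libraries in a way that the labels do not give. Kdm6a, a histone demethylase that acts on the polycomb mark and escapes X inactivation in other mammals, was at 45.8, 36.8 and 35.3 CPM in blue 1 to 3 and at 23.1, 18.4 and 22.3 CPM in white 1 to 3. In the green libraries it was at 44.4, 20.5 and 20.0 CPM, so green 1 lay with the blue libraries. Green 2 and 3 lay with the white ones, although green 1 and 2 carry the same animal number. Green 1 and 2 are both right-eye labels, and green 1 has the unexplained ending -B, as white 3 does. Whether that ending marks another animal is not stated. Eif2s3, a subunit of the translation initiation factor that brings the first tRNA, was at 88.4, 76.9 and 78.2 CPM in blue, 50.1, 44.0 and 41.4 CPM in white and 83.4, 40.4 and 39.4 CPM in green. Tbl1x, a subunit of a nuclear receptor corepressor complex, and Shroom2, an actin-binding protein, divided the 9 libraries in the same way. Of 16 such genes, chosen after the data were seen, 5 had no overlap between blue and white (Kdm6a, Eif2s3, Tbl1x, Shroom2 and Syap1, all higher in blue, beside 5.76% of all tested genes), and the other 11 overlapped, among them Kdm5c, Ddx3x and Usp9x. Whether this pattern follows the animals' sex was not tested, and its part in the differences below was not tested. It cannot be told apart from light within the 6 libraries, because every blue library was high and every white library was low.

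**Figure D1:**
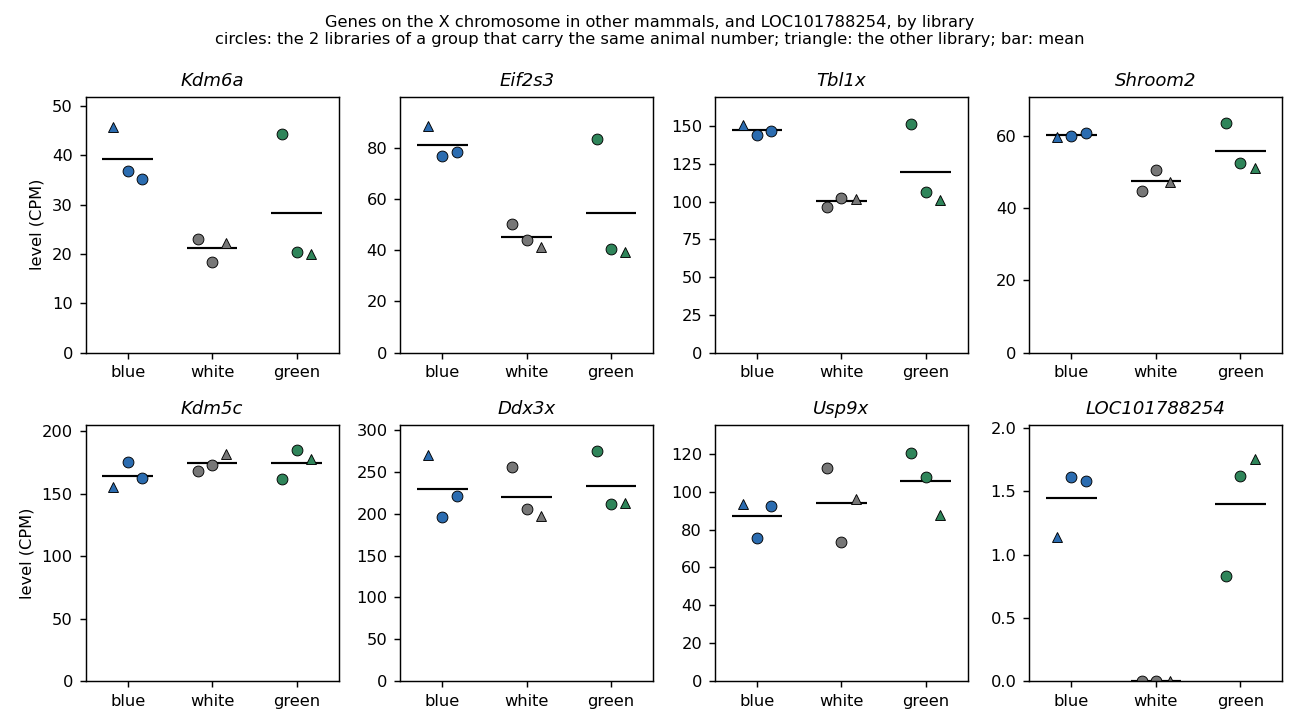
Level in CPM (vertical axis) of 7 genes that lie on the X chromosome in other mammals and of LOC101788254, for the 3 blue, 3 white and 3 green libraries; circles are libraries with a shared animal number, triangles the other library, bars the group means. For Kdm6a, Eif2s3, Tbl1x and Shroom2 green 1 sits with the 3 blue libraries and green 2 and 3 sit with the 3 white ones, while LOC101788254 is at 0 in the white libraries and present in all blue and green ones.

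Few genes passed a test between blue and white retinas. In edgeR's quasi-likelihood test with Benjamini-Hochberg adjustment 1 of 15469 genes passed an adjusted p under 0.05, a share of 0.00646%. DESeq2's Wald test on the same counts called 28 of 15456 genes (0.181%), of which 17 were higher and 11 lower in blue, and in all 28 the blue and white libraries did not overlap. Without adjustment, 689 genes (4.45%) had a p under 0.05 in edgeR, fewer than the 773 that evenly spread p-values would give. Of these, 382 (2.47%) were higher and 307 (1.98%) lower in blue. The groups did not overlap in 1531 genes (9.9%), 891 of them higher (5.76%) and 640 lower (4.14%) in blue. Over all tested genes 51.5% were higher and 48.5% lower in blue, the median log2 difference was 0.0048, and 379 genes differed by more than 1 on the log2 scale. The biological coefficient of variation between libraries of a group was 17.7% for a typical gene. In what follows, log2 differences are blue minus white from edgeR with their standard errors (SE), and adjusted p-values cover all tested genes. Counts of list members at an unadjusted p under 0.05 are to be read beside the 4.45% of all genes.

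**Figure D2:**
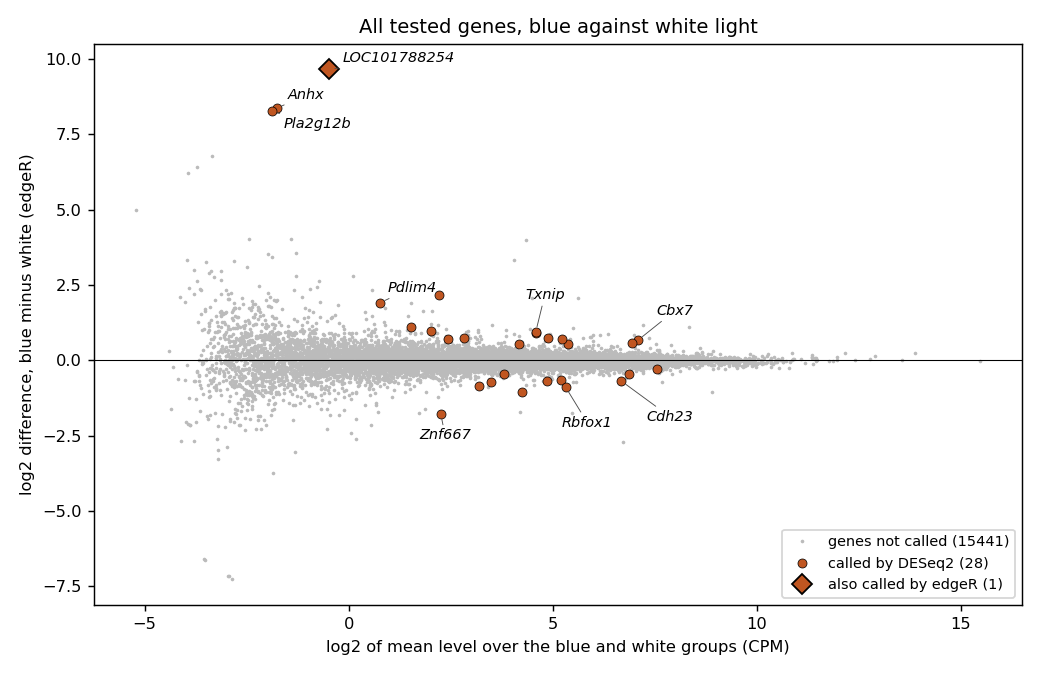
Log2 difference, blue minus white (vertical axis), against log2 of the mean level in CPM over both groups (horizontal axis) for the 15469 tested genes; circles mark the 28 genes called by DESeq2 and the diamond the 1 gene also called by edgeR. Most genes lie near 0, and LOC101788254, Anhx and Pla2g12b stand at the top because they had no count in the white libraries.

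The gene that passed was LOC101788254, a protein-coding gene with no symbol in the table. It had 81, 119 and 108 counts in blue 1 to 3 and 0 counts in each of white 1 to 3. Blue 1 to 3 were at 1.14, 1.61 and 1.58 CPM. Their mean was at least 96.0-fold over the 0.0151 CPM that 3 counts over the whole white group allow (adjusted p = 0.0136, DESeq2 adjusted p = 1.14e-08). Since low counts that are multiples of 4 are frequent in the table, a unit may be 4 counts, and a limit of 3 such units lowers this bound to at least 24.0-fold. Green 1 to 3 held 65, 104 and 123 counts, so the gene was counted in 6 of 9 libraries and was missing from the 3 white ones. The white libraries came from 2 animal labels, so a difference between animals cannot be told apart from light here. Green 2 and 3 were low for Kdm6a and still had this transcript, so it did not divide the libraries as Kdm6a did. The call was lost without blue 2 (adjusted p = 0.0874), without green 2 (adjusted p = 0.0508), after division of the counts by 4 (adjusted p = 0.14), when the 6 libraries were fitted alone (adjusted p = 0.0597) and in limma-voom with a correlation within animal labels (adjusted p = 0.0641).

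Anhx and Pla2g12b also had no count in white and were called by DESeq2. Anhx, a homeobox gene, had 77, 34 and 16 counts in blue and, among green libraries, 2 counts in green 1 alone, so blue was at least 39.3-fold above the limit for white, or at least 9.83-fold with units of 4 counts (DESeq2 adjusted p = 0.00165). Pla2g12b, a member of the secreted phospholipase A2 family that is known from lipoprotein assembly in the liver, had 4, 75 and 39 counts in blue and 46, 10 and 0 counts in green (DESeq2 adjusted p = 0.0171). The spread among the blue libraries was wide for both genes, and edgeR gave adjusted p = 0.48 for Anhx and adjusted p = 0.935 for Pla2g12b. Another unnamed gene called by DESeq2, LOC111758275, was at 4.77, 10.1 and 7.85 CPM in blue and 1.81, 2.20 and 1.11 CPM in white, without overlap.

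The 60 genes with symbols, at least 1 CPM and non-overlapping groups that had the smallest p-values were spread over many functions. Of these, 29 were higher and 31 lower in blue, by 0.24 to 2.72 on the log2 scale, and DESeq2 called 20. None passed the adjusted threshold in edgeR, where the adjusted p-values ran from 0.193 to 0.925. Sorted by known function after their values were seen, 15 belonged to adhesion and the cytoskeleton, 14 to gene regulation and RNA, 17 to metabolism and transport, 3 to calcium handling, and 11 to protein turnover, signalling and cilia. Since non-overlap and a small p chose these genes, their values below are descriptions, and none of them had overlapping groups.

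Among adhesion and cytoskeletal genes, 7 were higher and 8 lower in blue. Cdh23, a cadherin that forms tip links in hair cells, is an Usher syndrome gene and is also expressed in the retina, was at 77.0, 83.0 and 75.4 CPM in blue and 118, 136 and 127 CPM in white. All 3 blue libraries lay below all white and green ones, the green libraries being at 143, 111 and 125 CPM. The log2 difference was -0.70 ± 0.10 (SE; adjusted p = 0.193; DESeq2 adjusted p = 3.18e-06), the smallest edgeR p after LOC101788254, and it passed when green 1 was left out (adjusted p = 0.0404). Green 1, which was high for Kdm6a like the blue libraries, had the highest Cdh23 level of the 9 libraries. Of 16 listed Usher and hair-bundle genes 7 were higher and 9 lower in blue. At an unadjusted p under 0.05 there were 2 higher and 1 lower (Cdh23), or 18.8% beside 4.45% of all genes. Ush1c, another Usher gene, was higher in blue, and passed in edgeR without both -B libraries (log2 0.73; adjusted p = 0.0261). Pdlim4, a PDZ and LIM protein that binds actin fibres, was at 2.26, 2.51 and 3.30 CPM in blue and 0.354, 0.722 and 1.08 CPM in white, with every blue library higher (DESeq2 adjusted p = 0.0119). Wwc1, the scaffold KIBRA of the Hippo pathway, was at 35.7, 51.2 and 52.8 CPM against 24.4, 33.3 and 28.0 CPM in white (log2 0.70 ± 0.17). Slitrk1, a synaptic adhesion protein, was at 7.65, 11.4 and 10.3 CPM against 6.32, 6.18 and 5.10 CPM, and Fmnl3, a formin that elongates actin filaments, at 128, 138 and 114 CPM against 148, 184 and 176 CPM.

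Gene regulation and RNA processing held 7 genes higher and 7 lower in blue, with 2 polycomb proteins in opposite directions. Cbx7, which reads the polycomb mark within the repressive complex 1, was at 137, 191 and 175 CPM in blue and 89.9, 97.7 and 128 CPM in white. Samd7, a polycomb partner that keeps non-photoreceptor genes silent in photoreceptors, was at 20.0, 22.4 and 24.6 CPM in blue and 44.8, 30.8 and 31.3 CPM in white. Blue was above white in every library for Cbx7 (log2 0.67 ± 0.15; DESeq2 adjusted p = 0.0144) and below it in every library for Samd7 (log2 -0.67 ± 0.15; DESeq2 adjusted p = 0.0144). Znf667, a zinc finger repressor, was at 2.47, 2.45 and 1.51 CPM in blue and 7.57, 9.10 and 5.58 CPM in white, and green lay between at 2.95, 5.27 and 5.01 CPM. It had a log2 difference of -1.79 ± 0.28 (adjusted p = 0.216), and passed in edgeR when both -B libraries were left out (adjusted p = 0.0256).

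Rbfox1, a neuronal splicing factor that binds GCAUG and controls exons of channels and synaptic proteins, was at 26.6, 31.6 and 25.5 CPM in blue and 52.3, 46.0 and 56.5 CPM in white. The 3 blue libraries lay below the 3 white ones, with a log2 difference of -0.89 ± 0.15 (adjusted p = 0.25), and the green libraries, at 35.0, 31.5 and 23.8 CPM, overlapped blue and lay below white. Srrm4, which drives neuronal microexons, was at 36.0, 40.6 and 35.2 CPM in blue and 42.8, 43.9 and 46.8 CPM in white, and it was the only other one of 41 listed splicing regulators with an unadjusted p under 0.05. Akap8l, a nuclear anchoring protein tied to RNA processing, was at 108, 99.5 and 90.3 CPM in blue and 132, 146 and 130.3 CPM in white. Rad18, a ubiquitin ligase that lets replication pass damaged DNA, was at 8.77, 9.06 and 8.80 CPM in blue and 4.95, 4.67 and 6.53 CPM in white, each blue library being higher.

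**Figure D3:**
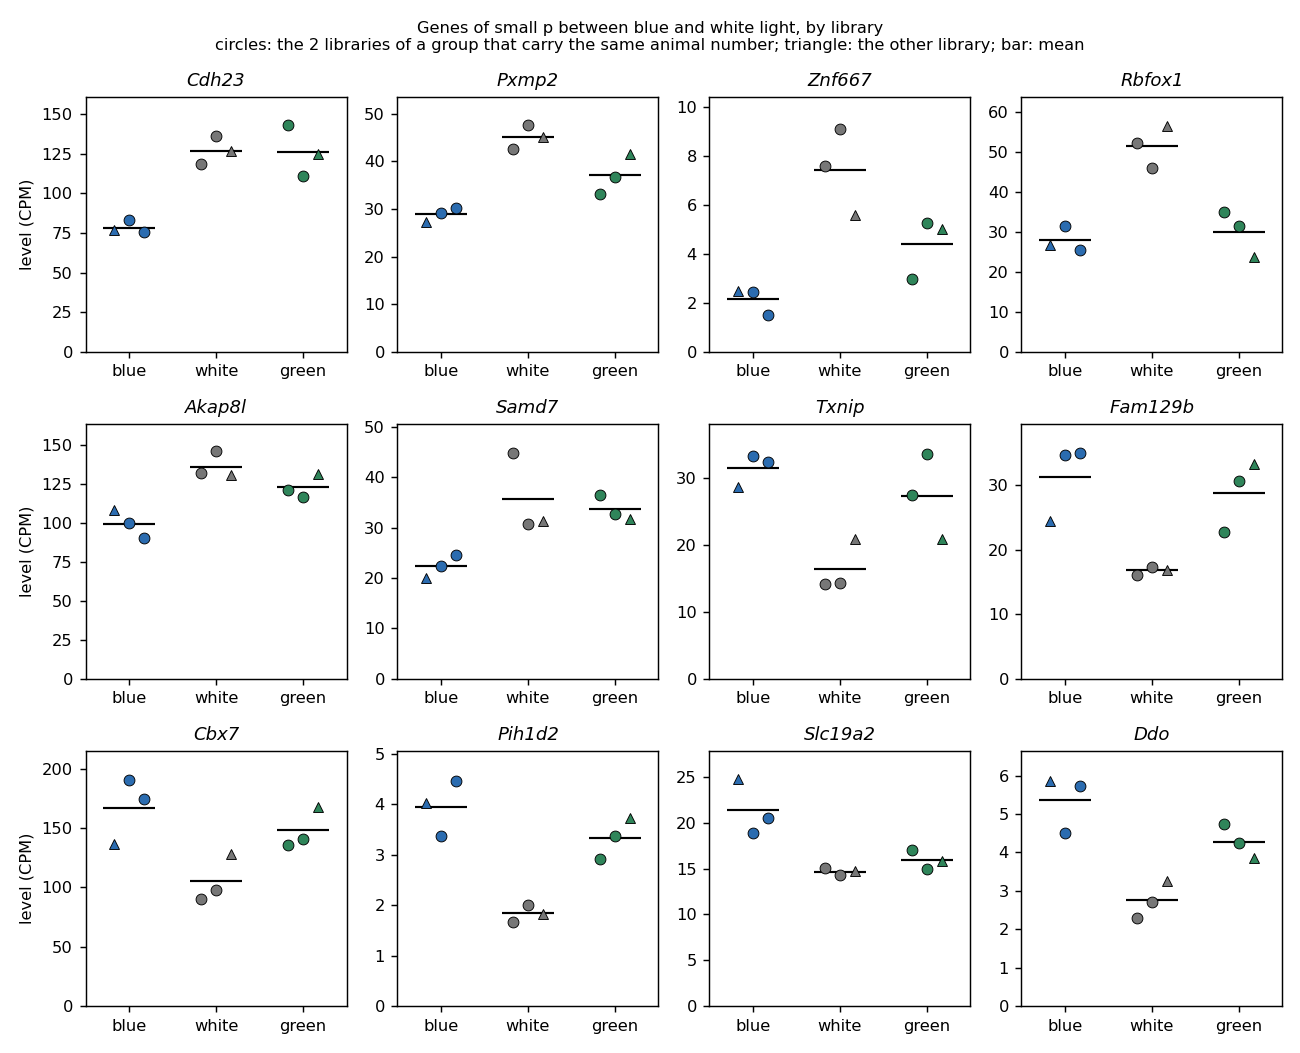
Level in CPM (vertical axis) of 12 genes of small p in each of the 3 blue, 3 white and 3 green libraries; circles are libraries with a shared animal number, triangles the other library, bars the group means. Blue and white do not overlap in any of the 12 genes, and none of them passes an adjusted p under 0.05 in edgeR.

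In metabolism and transport, 9 genes were higher and 8 lower in blue. Txnip, which binds thioredoxin and limits glucose uptake and is itself switched on by glucose, was at 28.7, 33.3 and 32.5 CPM in blue and 14.1, 14.3 and 20.9 CPM in white, with 27.4, 33.7 and 20.8 CPM in green. Blue was 0.94 ± 0.19 above white (log2; adjusted p = 0.487; DESeq2 adjusted p = 0.00126). Pfkp, an isoform of the glycolytic enzyme phosphofructokinase, was at 434, 467 and 422 CPM in blue and 552, 549 and 512 CPM in white, a difference of -0.29 ± 0.07 (log2). Across the glycolysis list, 14 of 21 genes were lower in blue and Pfkp was the only one at an unadjusted p under 0.05, with a median of -0.0213 beside 0.0048 over all genes. Txnip was the only one of 12 tested alpha-arrestin and glucose-sensing genes at that p. Pgk1, another glycolytic enzyme, had non-overlapping groups at 812, 832 and 826 CPM in blue and 910.0, 957 and 875 CPM in white. Pfkp and Pgk1 were the 2 of 21 glycolysis genes without overlap, 9.52% beside 9.9% of all genes.

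Pxmp2, a channel of the peroxisomal membrane, was at 27.3, 29.2 and 30.2 CPM in blue and 42.5, 47.7 and 45.2 CPM in white, and every blue library lay below every white and green one (log2 -0.64 ± 0.10; adjusted p = 0.216). Ddo, a peroxisomal oxidase of D-aspartate, lay the other way, at 5.86, 4.52 and 5.72 CPM in blue and 2.30, 2.70 and 3.25 CPM in white. Of 36 listed peroxisomal and fatty acid oxidation genes, 16 were higher and 20 lower. Pxmp2 and Pex11g, a peroxisome division protein, were at an unadjusted p under 0.05, a share of 5.56% beside 4.45% of all genes. Slc19a2, a thiamine transporter, was at 24.8, 18.9 and 20.5 CPM in blue and 15.1, 14.3 and 14.8 CPM in white (log2 0.54 ± 0.12; DESeq2 adjusted p = 0.0292). Heph, a copper oxidase that helps iron leave cells and does so in the retina, was at 8.91, 8.34 and 10.4 CPM in blue and 6.00, 5.36 and 6.35 CPM in white. Star, which carries cholesterol into mitochondria for steroid synthesis, was at 3.63, 2.77 and 2.96 CPM in blue and 1.41, 1.63 and 1.69 CPM in white. Both were higher in every blue library, with adjusted p = 0.67 for Heph and adjusted p = 0.716 for Star. Uros, an enzyme of heme synthesis, was at 16.6, 15.4 and 17.2 CPM in blue and 11.5, 12.8 and 11.3 CPM in white (log2 0.46 ± 0.11). Ckm, the muscle form of creatine kinase, was at 1.96, 1.90 and 2.29 CPM in blue and 3.90, 3.64 and 2.99 CPM in white (log2 -0.78 ± 0.21).

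Calcium handling held 3 genes, all lower in blue. Atp2a2, the pump that returns calcium to the endoplasmic reticulum, was at 475, 495 and 481 CPM in blue and 576, 575 and 569 CPM in white. Ryr1, a calcium release channel of the same membrane, was at 31.1, 29.9 and 31.6 CPM in blue and 44.0, 34.4 and 45.9 CPM in white. The log2 differences were small, -0.25 ± 0.07 for Atp2a2 and -0.42 ± 0.11 for Ryr1, and white 2 was nearest to blue for Ryr1. Creld2, a calcium-binding protein of the endoplasmic reticulum that responds to stress there, was at 26.0, 31.2 and 29.9 CPM in blue and 44.9, 43.1 and 33.2 CPM in white. Of the 20 listed endoplasmic reticulum stress genes 8 were higher and 12 lower, the median was -0.0535, and none reached an unadjusted p under 0.05. The groups did not overlap in 4 of these, all lower in blue, beside 4.14% of all genes. These were Hspa5 (-0.16), Calr (-0.15), Pdia4 (-0.14) and Hsp90b1 (-0.10), with log2 differences in brackets.

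The remaining 11 genes concern protein turnover, signalling and cilia, 6 higher and 5 lower in blue. Pih1d2, a PIH-domain protein of the family that helps assemble ciliary dynein arms, was at 4.03, 3.36 and 4.46 CPM in blue and 1.67, 2.01 and 1.83 CPM in white (log2 1.10 ± 0.20). Fam129b, a cytoplasmic protein linked to cell survival, was at 24.4, 34.7 and 35.0 CPM in blue and 16.2, 17.4 and 16.9 CPM in white, and the 3 white libraries were nearly equal while blue 1 was lower than blue 2 and 3. It passed in edgeR once the level of Kdm6a, Eif2s3 and Tbl1x was a covariate (adjusted p = 0.0417, against 0.331 without it). Alpk1, a kinase that senses a bacterial sugar nucleotide, was at 5.99, 6.77 and 7.41 CPM in blue and 4.27, 3.71 and 4.50 CPM in white. Ttc8, a subunit of the BBSome that carries proteins along the photoreceptor cilium, was at 104, 87.2 and 94.4 CPM in blue and 71.6, 66.3 and 80.5 CPM in white.

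The covariate was added after the data were seen, and with it 41 of the 60 genes kept an unadjusted p under 0.05. In 59 of the 60 the direction was the same under every alternative, the exception being Eif2s3, from which the covariate was made. Non-overlap and a small p chose these genes, so a fit with 1 library left out could hardly turn their direction. The constant direction is therefore a description and no support. With the covariate 7 genes passed in edgeR (Ada, Fam129b, Irgq, LOC101788254, LOC111758275, Nr2e3 and Tnip1), and 2098 genes had an unadjusted p under 0.05. The covariate takes its values almost wholly from the division of blue from white, with green 1 the only library of another light on the high side, so the adjusted contrast leans on the green group.

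Photoreceptor genes gave few differences between the 2 lights. The short-wavelength cone opsin Opn1sw was at 637, 616 and 541 CPM in blue and 582, 554 and 579.9 CPM in white, and the middle-wavelength opsin Opn1mw at 605, 641 and 707 CPM in blue and 638, 754 and 661 CPM in white. Groups overlapped for both cone opsins, with log2 differences of 0.06 ± 0.08 for Opn1sw and -0.07 ± 0.10 for Opn1mw. Of 23 rod transduction genes 12 were higher and 11 lower, with a median of 0.0029, and of 15 cone genes 6 were higher and 9 lower, with none at an unadjusted p under 0.05. Nr2e3, a receptor that keeps rods from cone fate, had the smallest p of the rod genes. It was at 406, 482 and 433 CPM in blue and 345, 346 and 318 CPM in white, with no overlap and a log2 difference of 0.39 ± 0.13 (adjusted p = 0.968), and its adjusted p was 0.0417 with the covariate above. Gngt1, the rod transducin gamma subunit, was the other rod gene at an unadjusted p under 0.05, at 268, 176 and 202 CPM in blue and 187, 160.5 and 169 CPM in white, where the groups overlapped. Gnb1, the beta subunit of rod transducin, did not overlap, at 7737, 8208 and 7921 CPM in blue and 7009, 7631 and 6879.9 CPM in white. Nr2e3 and Gnb1 were the 2 of 23 rod genes without overlap, 8.7% beside 9.9% of all genes. Of the 15 cone genes 2 did not overlap, both lower in blue, or 13.3%.

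Channel genes set the membrane potential and firing of retinal neurons and gate calcium at their synapses. Of 33 listed potassium channel genes 25 were lower and 8 higher, with a median of -0.1006, and the 3 at an unadjusted p under 0.05 were all lower. Kcna2, a delayed rectifier of axons, was at 46.5, 52.3 and 45.8 CPM in blue and 79.0, 48.2 and 69.1 CPM in white. Kcnma1, the large calcium-activated channel, was at 88.5, 84.4 and 82.2 CPM in blue and 109, 88.2 and 106 CPM in white. The groups overlapped for both Kcna2 and Kcnma1. No member passed the adjusted threshold, and 3 of 33 compares with 4.45% of all genes. Over all 77 genes with a potassium channel symbol 31 were higher and 46 lower, the median was -0.0355, and at an unadjusted p under 0.05 there was 1 higher (Kcnip1) and 4 lower. Among 23 calcium and sodium channel genes 14 were lower, with Cacna2d4, an auxiliary subunit of the photoreceptor calcium channel, at 341, 340.3 and 305 CPM in blue and 431, 357 and 401 CPM in white. Cacna1h, a low-threshold calcium channel, was at 147, 171 and 169 CPM in blue and 183, 202 and 193 CPM in white. Both were below white in every blue library, and no gene of this list was at an unadjusted p under 0.05 in the other direction. Besides these 2, the groups did not overlap in 1 gene of the list that was higher in blue. The share without overlap was 13%, beside 9.9% of all genes.

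Transmitter systems gave few members at an unadjusted p under 0.05. Of 27 glutamate receptor and transporter genes 11 were higher and 16 lower. The transporter Slc1a1, higher in blue, was the only one at that p (3.7%, beside 4.45% of all genes). The groups did not overlap in 3 higher and 2 lower ones (18.5%, beside 9.9% of all genes). Of 25 genes of GABA and glycine transmission 11 were higher and 14 lower, and 8% were at that p. In 2 higher and 1 lower of these the groups did not overlap (12%). Slc6a9, the glycine transporter of amacrine cells, was at 353, 406 and 422 CPM in blue and 311, 347 and 363 CPM in white. Glra1, a glycine receptor subunit, was at 22.7, 26.4 and 23.5 CPM in blue and 31.6, 26.2 and 31.2 CPM in white. Scgn, a calcium-binding protein of some cone bipolar and amacrine cells, was at 27.1, 27.3 and 30.6 CPM in blue and 21.0, 24.1 and 21.7 CPM in white. Unc13a, which primes synaptic vesicles, was at 251, 267 and 248 CPM in blue and 283, 286 and 301 CPM in white, the only one of 30 vesicle fusion genes at that p. Scgn was higher and Unc13a lower in blue without overlap, whereas Slc6a9 and Glra1 overlapped. Th, the enzyme that limits dopamine synthesis, was at 22.3, 35.2 and 40.9 CPM in blue and 25.8, 27.5 and 32.4 CPM in white, and the groups overlapped. None of the 14 dopamine genes reached an unadjusted p under 0.05. In 3 of them the groups did not overlap, 2 higher and 1 lower in blue, beside 5.76% and 4.14% of all genes. Drd4, the dopamine receptor of photoreceptors, was the lower one, at 123, 128 and 121 CPM in blue and 141, 132 and 186 CPM in white. Drd1, a dopamine receptor of inner neurons, was at 53.0, 43.0 and 45.5 CPM in blue and 42.9, 39.2 and 42.3 CPM in white.

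Light-driven and eye-growth genes were mostly mixed. Egr1, an immediate early gene of amacrine cells studied in eye growth, was at 40.3, 14.7 and 14.9 CPM in blue and 22.6, 24.4 and 17.5 CPM in white, so blue 1 held the highest and blue 2 and 3 the lowest values. Of 22 immediate early genes 7 were higher and 15 lower, and 3 had an unadjusted p under 0.05, beside 4.45% of all genes. Those were Fosb at 5.57, 3.85 and 2.67 CPM in blue and 2.12, 1.17 and 2.65 CPM in white, Klf2 at 5.40, 5.56 and 4.86 CPM in blue and 2.56, 4.23 and 3.62 CPM in white, and Nr4a3 at 1.71, 0.868 and 1.14 CPM in blue and 4.45, 2.48 and 1.82 CPM in white. Fosb and Klf2 were higher and Nr4a3 lower in blue. Opn4, the melanopsin of light-sensitive ganglion cells, was at 4.39, 11.0 and 12.2 CPM in blue and 5.57, 5.75 and 10.4 CPM in white, and overlapped. No member reached an unadjusted p under 0.05 among 20 clock genes, 14 retinoic acid genes, 32 genes of the TGF-beta and BMP pathways and 16 of the insulin-like growth factor system.

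Müller glia span the retina and feed its neurons, and Wnt signals shape its vessels and glia. Of 33 Wnt pathway genes 21 were higher and 12 lower, with a median of 0.0843. The groups did not overlap in 7, all higher in blue, beside the 5.76% of all genes that were higher without overlap. Fzd4, the receptor for norrin that builds retinal vessels, was at 165, 139.7 and 136 CPM in blue and 132, 118 and 123 CPM in white. Fzd1, another Wnt receptor, was at 86.3, 88.5 and 81.6 CPM in blue and 70.3, 76.9 and 75.6 CPM in white, and Dkk3, a secreted Dickkopf protein found in Müller glia, at 1832, 2071 and 2114 CPM in blue and 1609.8, 1805 and 1736 CPM in white. The log2 differences of these 3 genes were small, 0.24 ± 0.09, 0.20 ± 0.08 and 0.22 ± 0.09. Crym, which binds thyroid hormone in the cytoplasm, was at 239, 285 and 318 CPM in blue and 177, 216 and 205 CPM in white, a difference of 0.50 ± 0.13. Of 16 Müller glia markers 12 were higher and 4 lower in blue. Crym and Dkk3 were the 2 at an unadjusted p under 0.05, or 12.5%, beside 4.45% of all genes.

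**Figure D4:**
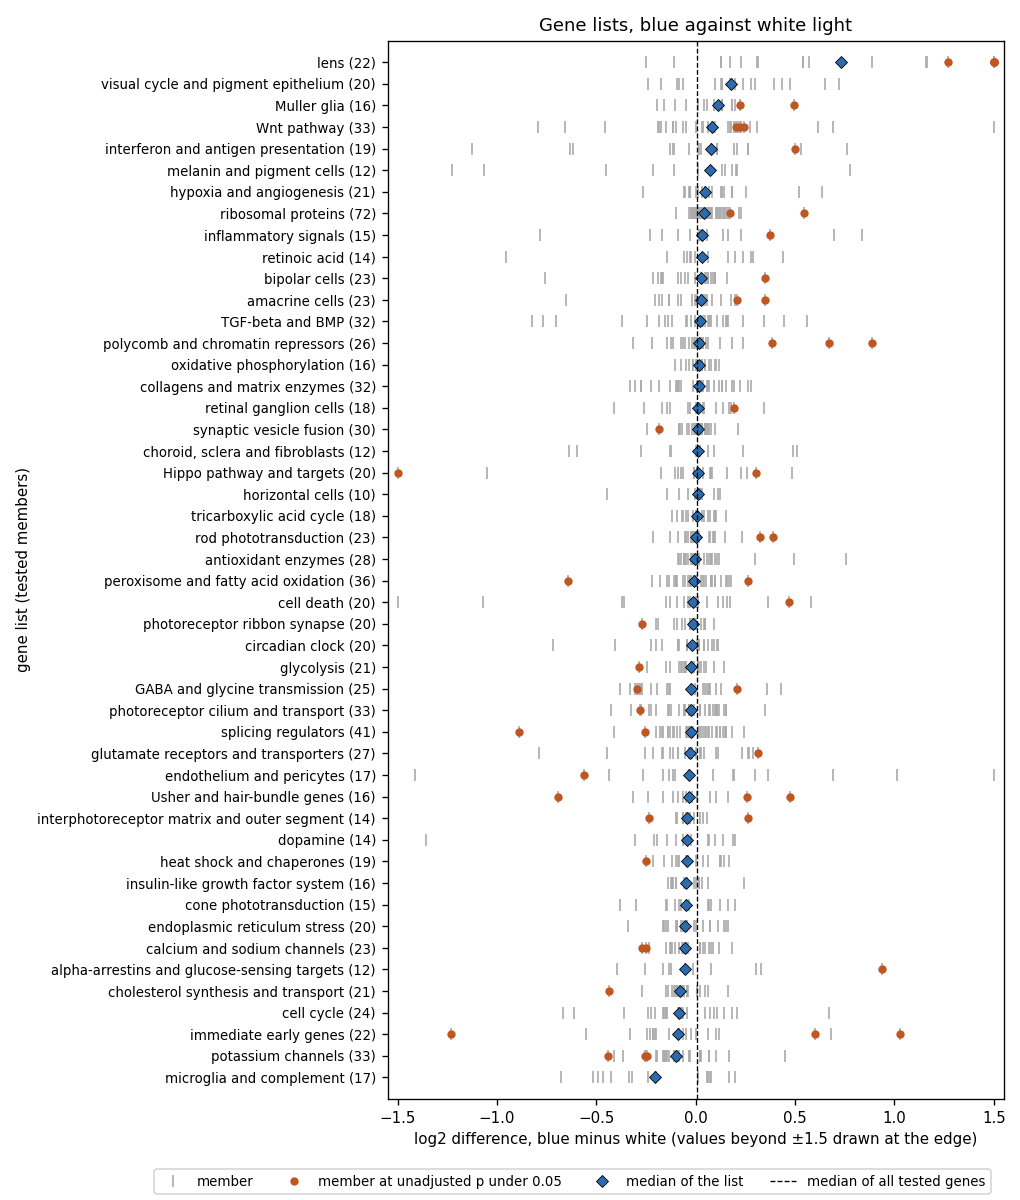
Log2 difference, blue minus white (horizontal axis; values beyond 1.5 drawn at the edge), of each tested member of the gene lists, 1 list a row with the number of tested members; ticks are members, dots members at an unadjusted p under 0.05, diamonds list medians, and the dashed line the median of all tested genes. The lens list lies farthest to the right, with a median of 0.7295, and the microglia list farthest to the left, with -0.203; lists of under 10 members are not drawn.

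Markers of neighbouring tissues were uneven between libraries. Of 22 lens genes 20 were higher in blue, with a median log2 difference of 0.7295, and 5 crystallins (Cryba2, Crybb1, Cryba4, Cryba1 and Crygs) had an unadjusted p under 0.05, all higher in blue, beside 2.47% of all genes. Cryaa, an abundant alpha crystallin, was at 18.5, 6.59 and 22.6 CPM in blue and 0.693, 18.1 and 2.40 CPM in white. White 2 lay among the blue libraries, so the groups overlapped in 21 of the 22 lens genes, Crybb1 being the exception. The list's mean level overlapped too, at 0.2225 to 0.9817 in blue and -1.4506 to 0.4178 in white. These levels are on a log2 scale centred on the 6 blue and white libraries. Without white 2, Cryba4 and Crygs passed in edgeR (adjusted p = 0.0354 and adjusted p = 0.0416). Rpe65, the visual cycle isomerase of the pigment epithelium, was at 61.0, 63.8 and 98.6 CPM in blue and 44.9, 144 and 15.1 CPM in white. White 2 was the highest and white 3 the lowest, and none of 20 visual cycle and pigment epithelium genes had an unadjusted p under 0.05. Microglial and complement genes were lower in blue in 10 of 17, and none of them had an unadjusted p under 0.05. C1qc and Aif1 were without overlap and lower in blue, 11.8% of the list beside 9.9% of all genes without overlap. C1qc was at 2.37, 3.81 and 3.57 CPM in blue and 4.41, 4.23 and 4.44 CPM in white. The part of lens, pigment epithelium or microglial RNA in other differences was not tested.

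Several of the large differences rested on libraries at separate levels within a group. Tead3, a transcription factor of the Hippo pathway, was at 20.3, 23.3 and 17.5 CPM in blue and 84.7, 94.9 and 25.1 CPM in white, so white 1 and 2 stood far above white 3. Sema7a, a membrane semaphorin that guides axons and binds integrins, was at 24.7, 30.8 and 28.7 CPM in blue, 239.9, 279 and 34.5 CPM in white and 29.0, 98.6 and 246 CPM in green. Blue and white did not overlap for either gene, yet white 3 was close to blue, and green spanned most of the range for Sema7a. When white 3 was left out Tead3 passed (adjusted p = 0.00421), and Sema7a passed without both -B libraries (adjusted p = 0.00492). With all libraries they had adjusted p = 0.657 and adjusted p = 0.925. Nfasc, which gathers sodium channels at axon initial segments, was at 427, 461 and 430.2 CPM in blue, 183, 167 and 267 CPM in white and 488, 223 and 474 CPM in green, where green 2 lay apart from green 1 of the same animal number. Scd5, a fatty acid desaturase, was at 107, 99.3 and 112 CPM in blue and 49.9, 47.1 and 77.3 CPM in white.

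In other genes 1 blue library stood with white. Tub, whose loss causes retinal degeneration in mice, was at 167, 164 and 596 CPM in blue and 635, 625 and 664 CPM in white, with blue 3 far above blue 2 although both carry the animal number 32. Pycr3, an enzyme of proline synthesis, was at 16.6, 18.3 and 51.7 CPM in blue and 52.0, 56.9 and 52.1 CPM in white, split in the same way. Without blue 3, Tub and Pycr3 passed (adjusted p = 9.71e-06 and adjusted p = 2.42e-04). Among 10335 genes with a mean of at least 8 CPM, 26 had libraries at 2 levels, meaning a gap of more than 1 on the log2 scale and a range of at most 0.6 within each level. In 21 of these genes 2 libraries with the same animal label fell on different levels. In 3 of the 26 the blue and white groups did not overlap, beside 9.9% of all genes. Tub and Pycr3 were among the 26, while Tead3, Sema7a, Nfasc and Scd5 above and Prss56 below were not. The count of 21 includes genes, such as Fbxl20 and Irgq, that split only between green 1 and green 2. Those 2 libraries are both right-eye labels told apart by the ending -B, and whether they are 1 animal is not stated. Prss56, a serine protease tied to eye size in humans and mice, was at 24.9, 33.1 and 179 CPM in blue, 19.6, 18.5 and 18.4 CPM in white and 16.9, 192 and 11.3 CPM in green, so that blue 3 and green 2 were far above the rest.

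**Figure D5:**
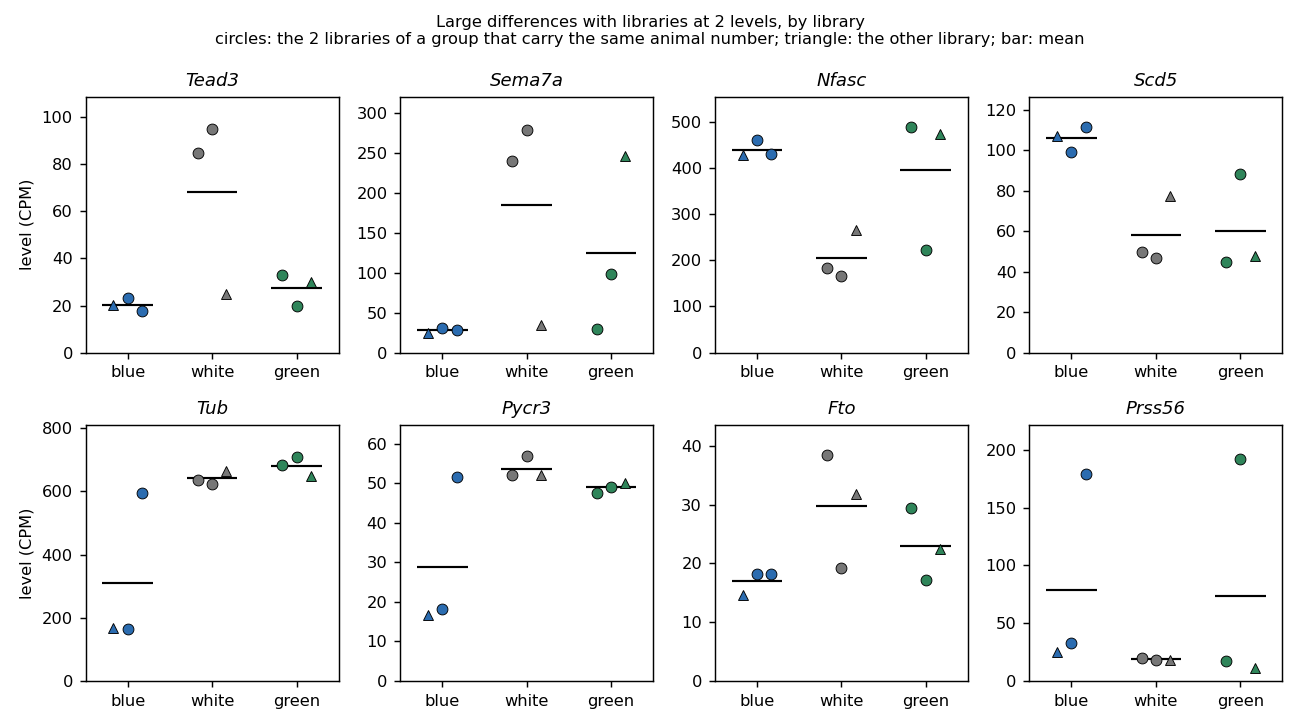
Level in CPM (vertical axis) of 8 genes with large differences in each of the 3 blue, 3 white and 3 green libraries; circles are libraries with a shared animal number, triangles the other library, bars the group means. Tub and Pycr3 show blue 3 with the white libraries, Tead3 and Sema7a show white 3 near the blue ones, and Prss56 is high in blue 3 and green 2.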

How the data were processed

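Retinal RNA sequencing of 9 libraries, 3 per light, was used; 1 table of whole-number counts for 19962 genes was deposited by the authors, per the file headers. Per the labels' protocols only extraction and sequencing are known; the aligner, counting tool, strand setting and genome build are not stated in the sources used here. Low counts that are multiples of 4 are more frequent than their neighbours, so that a count may not be a single fragment. Genes were kept by edgeR's filterByExpr (minimum count 10, total 15) and libraries scaled by TMM. All 9 libraries entered 1 edgeR 4.0.16 quasi-likelihood fit (R 4.3.3) with light as the only term, so green libraries share in the spread estimate, and blue minus white was tested with Benjamini-Hochberg adjustment over 15469 genes at 0.05. The fit was tested on simulated data. DESeq2 1.42.0, limma 3.58.1 (voom), other scalings, filters, covariates and left-out libraries were alternatives. SE is the log2 difference divided by the square root of F.

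Named genes were those called by edgeR or DESeq2, the 60 symbol genes of smallest p with at least 1 CPM and no overlap, the 10 highest and 10 lowest differences at 5 CPM or more, up to 4 members of smallest p and all at an unadjusted p under 0.05 in each list, and a set of opsin, light-response and cell-type genes. Hsp90b1, Syap1, Kdm5c, Ddx3x, Usp9x, Ada, Irgq, Tnip1, Kcnip1, Gnb1 and the chemokines, Sema3f and Sema3e fall outside this rule and were chosen after their values were seen. The comparison, the members and the lists were chosen with earlier results of these data known. Values of 3 listed genes are not reported here. The lists were described by counts and medians with no set test. Gene names come from the table; chromosomes were not used here, and Y-linked genes and Xist were not analysed here. Replicates carry no pairing between lights. The count of 3 used as a limit for 0 covers counting error only.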

Additional observations from a re-analysis of the deposited data

How the results depend on the processing

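The number of genes called by edgeR, 1 with all libraries, was 1 with DESeq2 size factors, upper-quartile scaling, no filter and counts summed per animal label. It was 0 with a filter of at least 5 CPM in 3 libraries (which removed LOC101788254), in voom, with the 6 libraries alone and with counts divided by 4. It was 28 in DESeq2, 12 without both -B libraries, 3 with the -B ending as covariate, 2 with the pigment epithelium level as covariate, and 7 with the Kdm6a, Eif2s3 and Tbl1x level as covariate, chosen after seeing the data. Leaving out 1 library gave 0 (without blue 2 or green 2) to 7 (without white 3) called genes. The 689 genes at an unadjusted p under 0.05 became 392 (without blue 3) to 1112 (without white 2), and 2098 with that covariate. Where a cause is not given by the construction, the cause was not tested.

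Over 131 named genes and 2854 values under alternatives, 2777 kept direction and side of the threshold, 46 became called, 5 lost the call and 26 turned direction. The last were all of genes with no call in edgeR with all libraries and light as the only term. Eif2s3, 1 of these genes, passed without both -B libraries (adjusted p = 0.0445) and without green 1 (adjusted p = 0.0314). Many of the named genes were chosen by a small p or by groups without overlap, which by itself favours a constant direction. With the covariate of Kdm6a, Eif2s3 and Tbl1x, the log2 difference was -0.036 for Eif2s3, -0.092 for Kdm6a, -0.024 for B2m, 0.17 for Opn1mw and 0.48 for Fos. With 1 library left out, the difference ran from -0.13 to 0.0035 for Opn1mw, -0.71 to 0.0037 for Fos, -0.92 to 0.47 for Gfap, -0.45 to 0.37 for Vip, -0.53 to 0.36 for Egr1 and -0.36 to 1.3 for Rpe65. Fos was at 0.064 with counts summed per animal. Vip was at 0.032 in voom, 0.37 without both -B libraries, 0.23 with the -B covariate and 0.10 with the pigment covariate. Egr1 was at -0.12 in voom and with the -B covariate and -0.026 without both -B libraries. Rpe65 was at -0.36 without both -B libraries, -0.24 with the -B covariate and -0.13 with the pigment covariate. No paired analysis was possible because replicate numbers follow accession order and pair no blue library with a white one.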

Other observations

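Families taken by symbol differed in their balance of directions, and no member passed the adjusted threshold in edgeR. Of 12 genes with a tubulin symbol 1 was higher and 11 lower in blue, with a median of -0.0819. Of 88 genes with a cytosolic ribosomal symbol 69 were higher and 19 lower, with a median of 0.0396. Of 293 solute carrier genes 156 were higher and 137 lower in blue, with 13 higher and 7 lower at an unadjusted p under 0.05. That is 6.83% of them, beside 4.45% of all genes. Of 232 zinc finger genes 102 were higher and 130 lower, with 1 higher and 5 lower at that p, Znf667 the smallest. Their share at that p, 2.59%, was below that of all genes. Among 29 semaphorins and plexins, guidance cues of axons and vessels and their receptors, 3 had an unadjusted p under 0.05 and all were lower in blue, beside 1.98% of all genes. These were Sema7a, Sema3f at 138, 126 and 117 CPM in blue and 155, 152 and 169 CPM in white, and Sema3e at 24.7, 27.0 and 25.2 CPM in blue and 31.6, 27.6 and 31.2 CPM in white. With the level of Kdm6a, Eif2s3 and Tbl1x as covariate, the log2 difference of Sema7a went from -2.72 to -0.66 (edgeR unadjusted p = 0.479). That covariate takes its values almost wholly from the division of blue from white. Its part in the difference of Sema7a was not tested.

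Of 16 chemokines and receptors 4 had an unadjusted p under 0.05, beside 4.45% of all genes. Cxcl16, a membrane-bound chemokine, was at 1.26, 1.29 and 1.48 CPM in blue and 2.05, 2.37 and 3.02 CPM in white. Cxcr4, the receptor of Cxcl12, was at 14.5, 14.6 and 13.6 CPM in blue and 17.5, 19.2 and 16.3 CPM in white, and Ccl27 at 3.02, 3.01 and 2.41 CPM in blue and 3.88, 4.20 and 3.86 CPM in white. These 3 were lower in blue, while Cxcl14, at 28.2, 30.7 and 27.8 CPM in blue and 24.2, 26.1 and 24.7 CPM in white, was higher. Of 200 TMEM genes 126 were higher. Of 14 aldehyde dehydrogenases, which oxidise retinal and other aldehydes, 12 were higher, with a median of 0.0995 and none at an unadjusted p under 0.05.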
